A study of Mus musculus with 9 samples.

Results

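The genes described here encode proteins of the neurite cytoskeleton: the neuronal beta-tubulins Tubb3, Tubb2a and Tubb2b, the structural microtubule-associated proteins (MAPs) Map2, Mapt and Map1b, the microtubule regulators Dcx, Dpysl3 and Stmn2, and the growth-cone protein Gap43. They were chosen by name, with earlier results of these data known, as 10 of the 24318 genes in each of 2 deposited expression tables. Each knockdown was compared with the control columns of its own table. RNA was profiled in N2A (Neuro2A), a mouse neuroblastoma line grown in serum that can be driven to extend neurites. Cells were transfected with a scramble control siRNA, an siRNA against EXOSC3 (siEXOSC3) or an siRNA against DDX1 (siDDX1), with 3 libraries per group and 9 in all. EXOSC3 is a structural cap subunit of the RNA exosome, the complex that processes and degrades RNA, and DDX1 is a putative RNA helicase of the DEAD-box family. The study sought proteins that interact with the exosome in a neuronal line and identified DDX1 as one. It then examined DNA damage, rRNA processing and RNA-DNA hybrids, and used RNA-seq to find transcripts altered by either depletion. All groups were of wild-type genotype and received a lipid transfection reagent in antibiotic-free medium, so no group shows the cells without transfection. The data describe a single tumor-derived line, depleted transiently and incompletely, and not neurons.

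Neurites are held up by bundles of microtubules, which are hollow polymers of alpha- and beta-tubulin. Mammals have several beta-tubulin genes, and TUBB3, TUBB2A and TUBB2B are the isotypes enriched in neurons. MAP2, tau (the product of Mapt) and MAP1B bind along the microtubule, doublecortin (DCX) stabilizes it in young neurons, stathmin-2 (the product of Stmn2) binds free tubulin dimers and favors disassembly, collapsin response mediators such as the product of Dpysl3 act in growth-cone turning, and GAP-43 lies under the growth-cone membrane.

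The neuronal beta-tubulins are so alike that the origin of their reads matters. On NCBIM37, the assembly also called mm9, Tubb2a lies on the minus strand at chr13:34166170-34169877 and Tubb2b on the same strand at chr13:34218877-34222223, 49.0 kb apart, while Tubb3 lies on the plus strand at chr8:125935324-125945915. The coding sequences of Tubb2a and Tubb2b are identical at 1291 of 1338 bases (96.5%), and the longest run without a difference is 551 bases. Tubb3 is identical to Tubb2a at 83.9% and to Tubb2b at 84.2% of coding bases. The last 60 coding bases, stop codon included, encode the acidic tail by which beta-tubulin isotypes differ most, and they are shown 5′ to 3′ on the coding strand from chr13:34166337-34166396, chr13:34219340-34219399 and chr8:125945523-125945582. Capitals mark the 3 positions at which Tubb2a and Tubb2b differ from each other. Read in frame, these 3 differences leave the amino acids unchanged, so Tubb2a and Tubb2b encode the same tail.
Tubb2a: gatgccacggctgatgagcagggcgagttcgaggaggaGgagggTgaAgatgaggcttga
Tubb2b: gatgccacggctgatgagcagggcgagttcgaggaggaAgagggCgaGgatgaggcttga
Tubb3: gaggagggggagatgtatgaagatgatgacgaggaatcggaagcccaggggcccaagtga
Of all stretches of 150 bases in the longest coding transcript, 408 of 1435 in Tubb2a (28.4%) also occur in Tubb2b, and those 408 are 23.0% of the 1773 in Tubb2b. The other 8 genes shared no such stretch with another of the 10. The levels of Tubb2a and Tubb2b are therefore uncertain with respect to each other, since the counting could split shared reads between them, and their sum is given below as well.

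Dcx lies on the minus strand at chrX:140290385-140367854 and Stmn2 on the plus strand at chr3:8509527-8561604. Map2 spans chr1:66221847-66489157 on the plus strand, and Mapt spans chr11:104092704-104193404 on the plus strand. Map1b occupies chr13:100191419-100286557 on the minus strand. Mapt overlaps the transcript Gm11659 and Map2 overlaps Gm10558, both annotated on the opposite strand, and because the libraries did not mark strand, reads of such pairs cannot be told apart. Tubb3 overlaps the same-strand gene model Gm20388.

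Since most of these genes moved in the same direction after EXOSC3 depletion, the 200 bases before each annotated start were searched on both strands for 4 short promoter motifs. The TATA box was read as TATAAA, the box bound by Sp1 as GGGCGG, the box bound by NF-Y as CCAAT and the E-box as CANNTG. The TATA box occurred in 3 of the 10 promoters (Tubb2a, Map1b and Dcx) against 10.0% of 22380 promoters of the same length, the Sp1 motif in 6 against 38%, the NF-Y motif in 3 against 30.6%, and the E-box in 3 against 54.8%. The promoters of Tubb2b and Gap43, which had the largest differences of the 10 genes after EXOSC3 depletion, are shown 5′ to 3′ on the minus strand from chr13:34222224-34222423 and chr16:42340765-42340964, with the matches in capitals.
Tubb2b: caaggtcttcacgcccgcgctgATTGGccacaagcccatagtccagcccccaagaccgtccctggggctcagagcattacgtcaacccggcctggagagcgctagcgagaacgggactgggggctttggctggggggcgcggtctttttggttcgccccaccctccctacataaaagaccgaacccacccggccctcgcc
Gap43: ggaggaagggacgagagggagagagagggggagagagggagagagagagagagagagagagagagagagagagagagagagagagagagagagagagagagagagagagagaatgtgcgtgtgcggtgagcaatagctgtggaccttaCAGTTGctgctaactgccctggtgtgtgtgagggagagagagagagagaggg
Tubb2b held 1 NF-Y motif, read here as its complement, and Gap43 held 1 E-box beside a long repeat of alternating G and A, so these windows had no searched motif in common. A match is a description of letters only.

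Values are FPKM, fragments per kilobase of transcript scaled to mapped fragments in the library, as deposited. Absolute read depth was not given in the tables. Relative depth, estimated from the steps between low values, ran from 0.827 to 1.2 times that of scramble replicate 1. In the other libraries only 19.1% to 23.0% of the low genes compared lay at the inferred step, so these are rough estimates. Exosc3 stood at 6.84 ± 0.836 FPKM in siEXOSC3 against 44.1 ± 1.56 in scramble (SD, n = 3 each), 15.5% of control, and Ddx1 at 30.5 ± 3.73 in siDDX1 against 125 ± 5.40, 24.4% of control. Of 15 neural markers, 13 were above the filter of a mean of 1 FPKM, and 3 of 7 fibroblast markers were listed at 0 in every library. Nefl and Nefm, the light and medium neurofilament genes of mature neurons, stayed under 1 FPKM in every library. The same 3 scramble libraries stand in both tables, and the tables were scaled separately.

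In scramble cells the 10 genes differed widely in level. On the FPKM scale, which is per length, Map1b was highest with a mean of 351 FPKM in the siEXOSC3 table, followed by Dpysl3 at 198, Tubb3 at 95.8, Gap43 at 81.5 and Tubb2b at 26.5. The ranges of these 5 genes did not overlap between neighbors. Mapt (15.3 FPKM), Map2 (13.1) and Tubb2a (13.0) followed, and the ranges overlapped between Mapt and Map2 and between Map2 and Tubb2a. Stmn2 stood lower at 2.96 FPKM, and Dcx was barely registered, at 0.0104, 0 and 0.00473 FPKM in scramble replicates 1 to 3. In siEXOSC3 cells Gap43 stood above Tubb3 and Tubb2a above Map2, with no overlap of ranges in either pair. In siDDX1 cells Gap43 also stood above Tubb3, and the ranges of Tubb2b and Mapt overlapped.

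After EXOSC3 depletion the neurite cytoskeleton genes rose together. All 9 that passed the filter increased, at a limma adjusted p under 0.05 over the 11242 genes tested, and 0 decreased, where 16.7% of all tested genes increased and 15.7% decreased. When single libraries were left out the count of 9 did not change, while the 1877 increased genes overall became 1025 to 2384. In all 9 the 3 siEXOSC3 libraries lay above the 3 scramble libraries, which held for 23.8% of all tested genes. The median log2 fold change of the 9, on the log2(FPKM + 1) scale that understates the change of low genes, was 1.06 with a range of 0.55 to 1.57, beside -0.01 for all genes tested. Ratios of mean FPKM ran from 1.46 for Dpysl3 to 3.06 for Tubb2b. DDX1 depletion gave a smaller and uneven picture: 4 of the 9 increased (Mapt, Map1b, Dpysl3 and Gap43), 0 decreased and 5 did not pass the test, where 5.61% of all 11104 tested genes increased and 5.03% decreased. Without scramble replicate 1 or 3 the count was 2, and the 623 increased genes overall became 96 to 1818 when single libraries were left out. The 4 increased genes were also those with all 3 siDDX1 libraries above all 3 scramble libraries, a pattern seen in 17% of tested genes. The median log2 fold change was 0.46, with a range of -0.16 to 0.74, beside 0.00 for all genes. Because the knockdowns share their control libraries, the values are given side by side and the difference between the knockdowns was not tested. In bulk RNA, fewer cells of a type and less RNA per cell cannot be told apart.

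**Figure D1:**
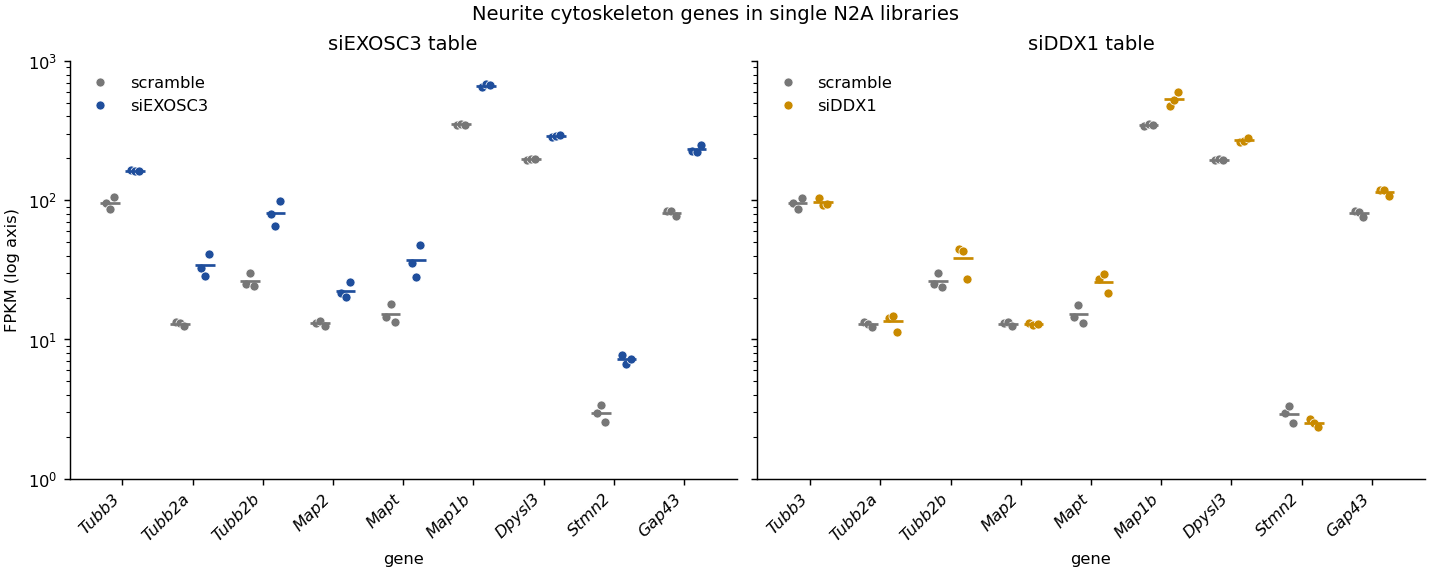
FPKM (log axis) of 9 neurite cytoskeleton genes in single libraries, left for the siEXOSC3 table and right for the siDDX1 table. Points are libraries, gray for scramble and colored for the knockdown, and lines are group means. All 3 siEXOSC3 points lie above the scramble points for all 9 genes, and all 3 siDDX1 points do so for Mapt, Map1b, Dpysl3 and Gap43. Dcx, at 0.0266 FPKM or less in every library, is left out.

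Tubb3, the class III beta-tubulin widely used as a marker of neurons, was measured at 166, 162 and 163 FPKM in siEXOSC3 replicates 1 to 3 and at 95.8, 86.7 and 105 FPKM in the scramble replicates. The groups did not overlap, and the siEXOSC3 libraries lay closer together than the controls. The log2 fold change was 0.77 (SE 0.078, limma adjusted p = 0.000846). In the siDDX1 table Tubb3 stood at 104, 91.8 and 93.7 FPKM against 95, 86.0 and 104, so the groups overlapped. The log2 difference was 0.03, with a 95% interval of -0.16 to 0.22 (limma adjusted p = 0.865).

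Tubb2a, whose product is one of the major beta-tubulins of brain, was measured at 32.8, 28.7 and 40.8 FPKM in siEXOSC3 and at 13.4, 13.1 and 12.5 in scramble. Even the lowest knockdown library stood well above the highest control. The log2 fold change was 1.31 (SE 0.12, limma adjusted p = 0.000522). With siDDX1 the values were 14.3, 14.8 and 11.4 FPKM against 13.3, 13.0 and 12.3, with 1 knockdown library below every control. The log2 difference was 0.06 (95% interval -0.17 to 0.29, limma adjusted p = 0.740).

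Tubb2b, a beta-tubulin needed for migration of cortical neurons, showed the largest log2 fold change of the 9 genes after EXOSC3 depletion with all libraries, while without siEXOSC3 replicate 3 Gap43 stood higher (1.45 against 1.42). It stood at 80.1, 65.4 and 98.1 FPKM against 25.2, 30.1 and 24.2 in scramble, with no overlap. The mean rose from 26.5 ± 3.16 to 81.2 ± 16.4 FPKM (SD, n = 3 each), a log2 fold change of 1.57 (SE 0.14, limma adjusted p = 0.000600), and 0.125% of tested genes had a larger one. In siDDX1 libraries the values were 45, 43.2 and 27.0 FPKM against 25, 29.9 and 24.0. Replicates 1 and 2 lay above every control and replicate 3 lay within the control range. The log2 difference of 0.50 (SE 0.18, 95% interval 0.09 to 0.91) did not pass the main test with all libraries (limma adjusted p = 0.108). Without siDDX1 replicate 3 it was 0.73 (limma adjusted p = 0.000695). It also passed in a fit of all libraries that added a term for replicate number. Since reads of the near-identical Tubb2a and Tubb2b could be exchanged, neither gene's own value is certain.

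The isotype makeup shifted along with the levels in siEXOSC3 cells. FPKM of 7 beta-tubulin genes were summed (Tubb2a, Tubb2b, Tubb3, Tubb4a, Tubb4b, Tubb5 and Tubb6), and Tubb4a was listed at 0 in every library. Tubb2a, Tubb2b and Tubb3 together made up 24.7%, 23.2% and 25.6% of the sum in siEXOSC3 replicates 1 to 3 and 15.2%, 14.5% and 15.7% in scramble. The mean share was 24.5% ± 1.21 against 15.1% ± 0.599 (SD, n = 3 each, exact permutation test, two-sided, p = 0.1, the smallest p that 3 against 3 can give). Tubb2a and Tubb2b taken as 1 isotype held 10.1% ± 1.61 against 4.42% ± 0.383. The broadly expressed Tubb4b held 19.3% ± 2.3 against 25.6% ± 1.39, with no overlap, and Tubb5, the most abundant isotype, 51.3% ± 1.05 against 54.4% ± 2.09. In mean FPKM, Tubb4b stood at 219 against 229 (limma adjusted p = 0.574) and Tubb5 at 584 against 487, so their levels did not fall as their shares did. The summed beta-tubulin FPKM was 1140 ± 40.4 against 895 ± 8.22.

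In siDDX1 cells the neuronal share was 15.3%, 14.2% and 13.4% against 15.2%, 14.5% and 15.7%, and the groups overlapped (mean 14.3% ± 0.964 against 15.1% ± 0.599, n = 3 each, exact permutation p = 0.3). The ratio of Tubb2b to Tubb2a was 3.14, 2.91 and 2.37 in siDDX1 against 1.89, 2.30 and 1.94 in scramble, without overlap (exact permutation p = 0.1), while in siEXOSC3 it was 2.44, 2.28 and 2.41 against the same controls (exact permutation p = 0.2). Tubb6 held 5.67% ± 0.503 of the sum in siDDX1 against 4.91% ± 0.131. None of these shares could pass 0.05 in the exact permutation test with 3 libraries per group.

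**Figure D2:**
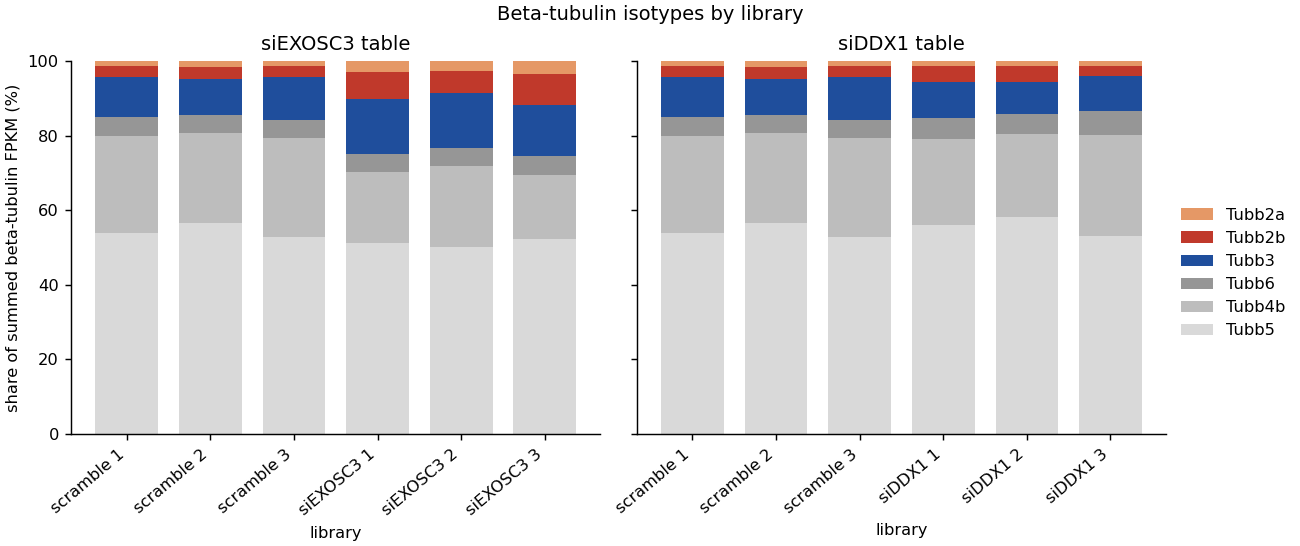
Share of the summed beta-tubulin FPKM (%, vertical axis from 0 to 100) held by each isotype in each library, for the siEXOSC3 table (left) and the siDDX1 table (right). Colored segments are Tubb2a, Tubb2b and Tubb3 and gray segments the other isotypes. The colored part covers 23.2% to 25.6% in siEXOSC3 libraries, 14.5% to 15.7% in scramble and 13.4% to 15.3% in siDDX1.

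Among the MAPs, Map1b was the most abundant gene of the 10 and rose in both comparisons. MAP1B is the MAP that appears first in growing axons. It stood at 648, 679 and 672 FPKM in siEXOSC3 against 346, 356 and 350, and at 472, 524 and 596 FPKM in siDDX1 against 343, 353 and 346. No knockdown library overlapped the controls in either table, and the siDDX1 replicates spread more widely than the siEXOSC3 replicates. The log2 fold changes were 0.92 (SE 0.064, limma adjusted p = 0.000321) for siEXOSC3 and 0.60 (SE 0.092, limma adjusted p = 0.00946) for siDDX1. The siDDX1 call was lost without scramble replicate 1 (limma adjusted p = 0.0606) and without scramble replicate 3 (limma adjusted p = 0.0541), with log2 fold changes of 0.60 in both.

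Mapt encodes tau, the axonal MAP. Its values were 35.7, 28.1 and 48.0 FPKM in siEXOSC3 against 14.6, 17.9 and 13.4, the widest relative spread among siEXOSC3 libraries of the 9 genes (a coefficient of variation of 27.0%). The groups were nonetheless apart, with a log2 fold change of 1.21 (SE 0.18, limma adjusted p = 0.00313). In siDDX1 Mapt stood at 27.3, 29.4 and 21.5 FPKM against 14.4, 17.8 and 13.2, and every knockdown library lay above every control. Its log2 fold change of 0.74 (SE 0.13, limma adjusted p = 0.0154) was the largest of the 9 genes in that table, where 0.594% of tested genes had a larger one. That call depended on the libraries used, with a limma adjusted p of 0.0571 without siDDX1 replicate 1, 0.0576 without siDDX1 replicate 2, 0.0791 without scramble replicate 1 and 0.0729 without scramble replicate 3.

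Map2, whose product marks dendrites and cell bodies, stood at 21.4, 20.2 and 25.7 FPKM in siEXOSC3 against 13.2, 13.5 and 12.6. The groups did not overlap and the log2 fold change was 0.72 (SE 0.093, limma adjusted p = 0.00195). In siDDX1 it stood at 13.2, 12.8 and 12.9 FPKM against 13.1, 13.4 and 12.5, entirely within the control range. The 95% interval of the log2 difference ran from -0.15 to 0.14 (limma adjusted p = 0.970). Its share of the summed FPKM of the 3 MAPs was 2.29% ± 0.262 in siDDX1 against 3.46% ± 0.0878 in scramble, without overlap (exact permutation p = 0.1, n = 3 each), and 3.08% ± 0.335 against 3.46% ± 0.0878 in siEXOSC3 (exact permutation p = 0.2).

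**Figure D3:**
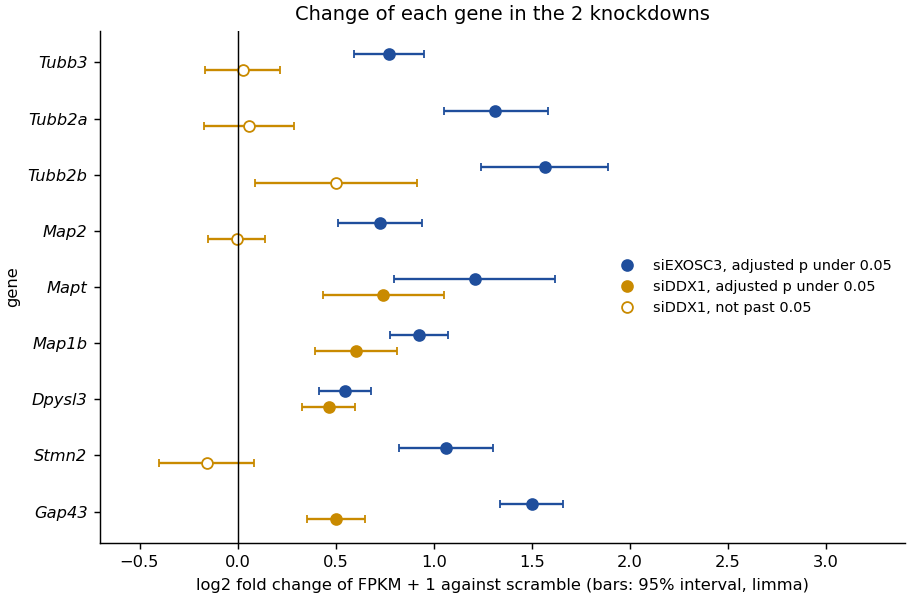
Log2 fold change of FPKM + 1 against scramble (horizontal axis) for 9 genes (vertical axis), blue for siEXOSC3 and ochre for siDDX1, with 95% intervals from limma. Filled points passed an adjusted p of 0.05. All 9 blue points lie between 0.55 and 1.57, and the ochre points between -0.16 and 0.74, with Mapt, Map1b, Dpysl3 and Gap43 filled.

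Dpysl3, also called CRMP4, encodes a collapsin response mediator that binds tubulin and actin. It lies on the minus strand at chr18:43480633-43597940 and had the smallest relative spread of the 9 genes among scramble libraries. It stood at 285, 288 and 294 FPKM in siEXOSC3 against 196, 199 and 197, and at 263, 267 and 280 FPKM in siDDX1 against 194, 198 and 195. Both knockdowns stood clear of their controls. The log2 fold changes were 0.55 (SE 0.059, limma adjusted p = 0.000997) and 0.46 (SE 0.059, limma adjusted p = 0.00668). The siDDX1 call was kept in all 13 alternative analyses, with a limma adjusted p of up to 0.0481.

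Gap43, annotated on the minus strand at chr16:42248555-42340764, encodes a palmitoylated protein of growing axon tips and is a common marker of axon growth. It stood at 227, 223 and 248 FPKM in siEXOSC3 against 84.2, 83.3 and 77.0, and at 118, 118 and 108 FPKM in siDDX1 against 83.5, 82.7 and 76.1. All knockdown libraries lay above all controls in both tables. Its log2 fold change of 1.5 in siEXOSC3 (SE 0.070, limma adjusted p = 6.71e-05) had the smallest adjusted p of the 9 genes with all libraries. In siDDX1 it was 0.50 (SE 0.065, limma adjusted p = 0.00693), and this call too was kept in all 13 alternatives, with a limma adjusted p of up to 0.0416.

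Stmn2 encodes stathmin-2, also called SCG10, a tubulin-binding protein of growth cones. It stood at 7.72, 6.72 and 7.28 FPKM in siEXOSC3 against 2.97, 3.37 and 2.55 in scramble. The groups did not overlap, and the log2 fold change was 1.06 (SE 0.10, limma adjusted p = 0.000741) although the ratio of mean FPKM was 2.45. In siDDX1 it stood at 2.67, 2.53 and 2.35 FPKM against 2.95, 3.34 and 2.52, so the groups overlapped. The log2 difference was -0.16 (95% interval -0.40 to 0.08, limma adjusted p = 0.348). Dcx was at 0.00628, 0.00531 and 0 FPKM in siEXOSC3 and at 0.0266, 0 and 0 in siDDX1, and a change in it was not detectable at this depth.

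Single libraries did not contribute equally. The median log2 difference of the 9 genes from the scramble mean was 1.14, 0.95 and 1.07 in siEXOSC3 replicates 1 to 3, and each library had all 9 genes above that mean. Among siEXOSC3 libraries replicate 3 was highest for 6 of the 9 genes and replicate 2 lowest for 7. For siDDX1 the medians were 0.43, 0.45 and 0.04, with 8, 6 and 5 of the 9 genes above the scramble mean, so by this median replicate 3 stood nearest to the controls. Replicate 3 was the lowest siDDX1 library for 5 of the 9 genes and the highest for 2, Map1b and Dpysl3, for which it lay furthest from the controls. The scramble libraries had medians of -0.08 to 0.05. Ddx1 itself stood at 28.0, 28.7 and 34.8 FPKM in siDDX1 replicates 1 to 3, highest in replicate 3. The part of this in the result was not tested.

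Tubb2b had the largest log2 fold change of the 9 neurite genes in the siEXOSC3 table with all libraries (without siEXOSC3 replicate 3, Gap43 did), and the genes with the most similar values over its 6 libraries were Cyfip2 and Clybl (Pearson r = 0.9993 each) and Iqcf5 (r = 0.9992). For Mapt, which had the largest of the 9 in the siDDX1 table, they were Vat1l (r = 0.9988), Zfp609 (r = 0.9978) and Cyp2c55 (r = 0.9975). The points share libraries and fall into 2 groups, so these are descriptions only.

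Related genes were read from 12 lists of cytoskeletal families, which held 128 genes beside the 10. After EXOSC3 depletion 46 of the 114 tested increased (40.4%), 5 decreased (4.39%) and 63 did not pass the test, beside 16.7% increased and 15.7% decreased of all tested genes, with a median log2 fold change of 0.14. Without scramble replicate 1 these counts were 30 increased and 2 decreased, without siEXOSC3 replicate 1 they were 35 and 2, and without siEXOSC3 replicate 2 they were 49 and 8, and without scramble replicate 2 or 3 there were 3 decreased genes. The neurite genes themselves, at a median of 1.06, stood further from 0 than the median of any of the 12 lists, the highest of which was 0.36 for the other collapsin response mediators. Because the genes and lists were chosen with earlier results of these data known, this ranking is a description only. After DDX1 depletion 7 of 113 increased (6.19%), 6 decreased (5.31%) and 100 did not pass, beside 5.61% and 5.03% of all tested genes, with a median of 0.00. All adjusted p-values in the account of these lists are from limma over all genes tested.

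**Figure D4:**
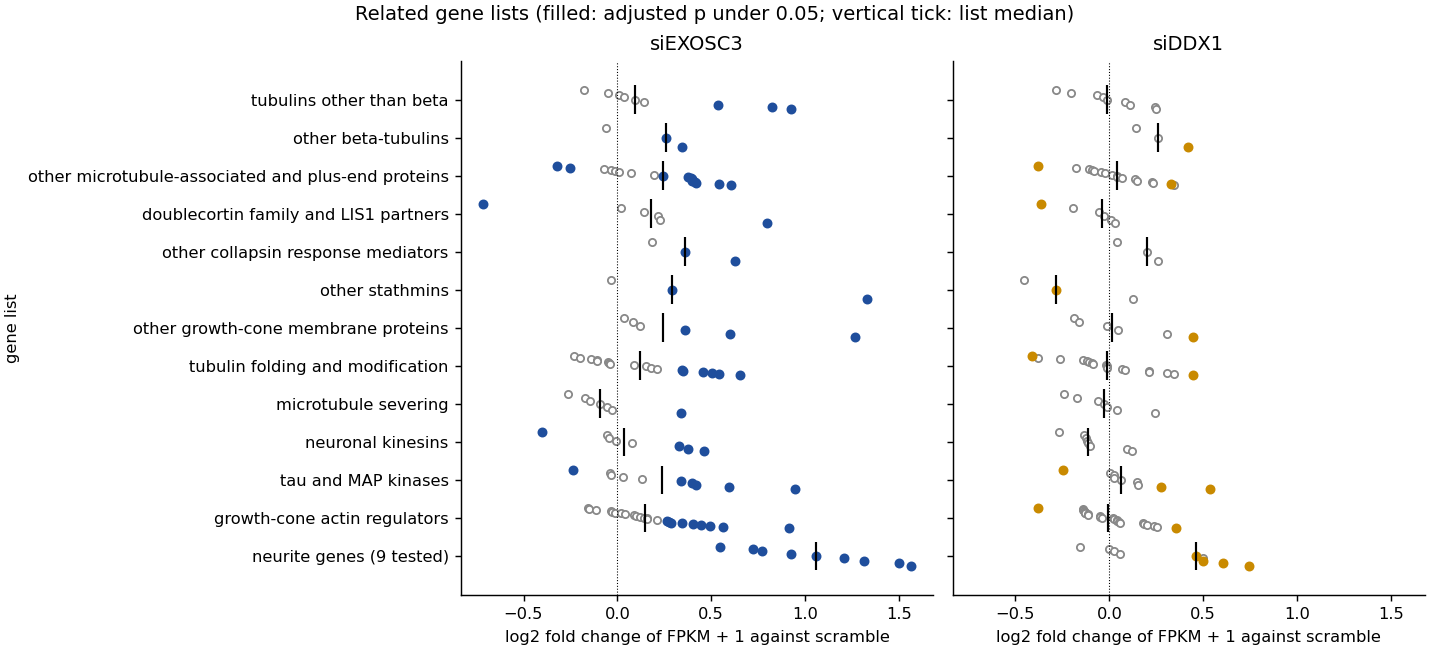
Log2 fold change of FPKM + 1 against scramble (horizontal axis) for the tested genes of 12 related lists and for the 9 neurite genes (vertical axis), siEXOSC3 left and siDDX1 right. Each point is a gene, filled where the limma adjusted p was under 0.05, and ticks are medians. The neurite genes have medians of 1.06 and 0.46, and the 12 lists have medians of -0.09 to 0.36 and -0.28 to 0.26.

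Tubulin partners moved unevenly after EXOSC3 depletion, and their counts are read against the 16.7% increased and 15.7% decreased of all tested genes. Of 9 alpha-, gamma-, delta- and epsilon-tubulins 3 increased (33.3%) and 0 decreased: Tuba1a, the main alpha-tubulin of developing neurons, rose from 272 to 481 FPKM (log2 fold change 0.82, adjusted p = 0.000964), Tuba8 from 13.6 to 27.0 (0.93, adjusted p = 0.00184) and Tubg2 from 4.36 to 6.83 (0.54, adjusted p = 0.0103). Of the 3 other tested beta-tubulins Tubb5 (0.26, adjusted p = 0.0279) and Tubb6 (0.34, adjusted p = 0.00601) rose. The Tubb5 call was lost without siEXOSC3 replicate 1 and without any single scramble replicate, and with all libraries also under quantile normalization and the replicate block, with an adjusted p of up to 0.116. Among 18 genes of tubulin folding and modification 6 increased (33.3%) and 0 decreased, led by the tubulin-cofactor regulator Arl2 (0.65, adjusted p = 0.000969), the cofactor Tbcc (0.54, adjusted p = 0.00851) and the detyrosinating enzyme Vash1 (0.51, adjusted p = 0.00283). Of 7 severing genes 1 increased (14.3%, near the share of all genes, with a list median of -0.09), Katnal1 (0.34, adjusted p = 0.0160), and that call was lost without any single scramble replicate (adjusted p up to 0.0606). Without siEXOSC3 replicate 2, 2 folding and modification genes and 1 severing gene decreased.

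Close relatives of the neurite genes gave mixed counts, again beside 16.7% increased and 15.7% decreased of all genes. Of the 3 other stathmins, Stmn4 rose from 7.32 ± 0.363 to 20.1 ± 3.47 FPKM (log2 fold change 1.33, adjusted p = 0.000581) and Stmn3 rose by 0.29 (adjusted p = 0.0132, up to 0.0700 without siEXOSC3 replicate 1 or scramble replicate 1). Of 3 other collapsin response mediators Dpysl2 (0.63, adjusted p = 0.000741) and Crmp1 (0.36, adjusted p = 0.00695) rose. In the doublecortin and LIS1 list of 6, where 1 increased (16.7%; 2 without siEXOSC3 replicate 2) and 1 decreased, Dclk1, a doublecortin-like kinase, rose from 8.53 to 15.6 FPKM (0.80, adjusted p = 0.000522), and Nde1, a LIS1 partner also used in mitosis, fell from 22.7 to 13.7 FPKM (-0.72, adjusted p = 0.00902). Of 6 growth-cone membrane genes 3 increased (50%), Gpm6b (1.27, adjusted p = 0.000479), Palm (0.60, adjusted p = 0.00850) and Basp1 (0.36, adjusted p = 0.0125), the last lost without scramble replicate 1 or 3 (adjusted p up to 0.0619).

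In the list of 17 other MAPs and plus-end proteins 9 increased (52.9%, beside 16.7% of all genes) and 2 decreased, and the largest increases were in Clip2 (0.60, adjusted p = 0.00446), Mapre3 (0.54, adjusted p = 0.0285) and Map6 (0.42, adjusted p = 0.0122). Without scramble replicate 1 the counts in this list were 5 increased and 0 decreased, without scramble replicate 3 they were 5 and 1, without siEXOSC3 replicate 1 they were 7 and 0, and without scramble replicate 2 or siEXOSC3 replicate 3 there was 1 decreased gene. Mapre3 lost its call without siEXOSC3 replicate 1 or any single scramble replicate, and without the filter (adjusted p up to 0.0940). Of 10 kinases and scaffolds that act on tau and MAPs 5 increased (50%) and 1 decreased (Mark2), led by the CDK5 activator Cdk5r2 (0.95, adjusted p = 0.000679), Mark4 (0.60, adjusted p = 0.0152) and Mapk8ip1 (0.42, adjusted p = 0.00537). The count of increased genes fell to 3 without siEXOSC3 replicate 1 or scramble replicate 2, and Mark2 kept its call in 3 of 13 alternatives and lost it without any single library other than siEXOSC3 replicate 2 (adjusted p up to 0.126). Of 8 neuronal kinesins 3 increased (37.5%) and 1 decreased: Kif3a (0.46, adjusted p = 0.0172) and Kif5c (0.38, adjusted p = 0.00395) rose and the ubiquitous Kif5b fell (-0.40, adjusted p = 0.00860). Mark4 lost its call without siEXOSC3 replicate 1 or scramble replicate 2 (adjusted p up to 0.0525), and Kif3a without siEXOSC3 replicate 1 or scramble replicate 1 or 3 (adjusted p up to 0.0696), and without scramble replicate 1 the list of kinesins held 1 increased gene. Of 24 growth-cone actin regulators 9 increased (37.5%) and 0 decreased, led by Wasf3 (0.91, adjusted p = 0.000782), Evl (0.57, adjusted p = 0.00439) and Pfn2 (0.50, adjusted p = 0.00535). In that list 5 increased without scramble replicate 2, and 7 increased and 1 decreased without siEXOSC3 replicate 3.

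After DDX1 depletion the related genes that passed the test were few and small in size, and their share was close to that of all genes. Tubb6 (log2 fold change 0.42, adjusted p = 0.00790), Clip2 (0.33, adjusted p = 0.0442), Gpm6b (0.44, adjusted p = 0.0376), Arl2 (0.45, adjusted p = 0.0456), Gsk3b (0.28, adjusted p = 0.0259), Cdk5r2 (0.54, adjusted p = 0.0128) and the actin regulator Vasp (0.36, adjusted p = 0.0203) rose. Those that fell were Camsap2 (-0.38, adjusted p = 0.0118), Nde1 (-0.36, adjusted p = 0.0175), Stmn3 (-0.28, adjusted p = 0.0273), the tubulin acetylase Atat1 (-0.41, adjusted p = 0.0237), Mark2 (-0.24, adjusted p = 0.0361) and Ssh1 (-0.38, adjusted p = 0.0488). Without scramble replicate 1 the lists held 1 increased gene and 0 decreased, and without siDDX1 replicate 3 they held 21 and 15. Over all genes the same omissions moved the counts in the same way, to 103 increased and 61 decreased and to 1818 and 1709. Leaving out any other single library left 2 to 3 increased and 0 to 2 decreased. Tubb6 kept its call in all 13 alternatives. The other 12 each lost it without scramble replicate 1, with an adjusted p over the alternatives of up to 0.0685 for Camsap2 and 0.173 for Ssh1.

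Markers of other cell states were read beside these results. In siEXOSC3 libraries 10 of 13 tested neural markers increased (beside 16.7% of all tested genes) and 0 decreased, and their summed level was 1710 to 1970 FPKM against 1210 to 1290 in scramble. Of 9 cycling-cell genes 5 decreased (Top2a, Ccnb1, Plk1, Aurka and Bub1; beside 15.7% of all tested genes) and 0 increased, and their sum was 700 to 886 FPKM against 953 to 1060. Top2a and Bub1 lost their calls without siEXOSC3 replicate 1, scramble replicate 1 or scramble replicate 2 (limma adjusted p up to 0.0799 and 0.101), which left 3 decreased genes, and Bub1 lost it also without the filter. In siDDX1 libraries 2 of 13 neural markers increased (beside 5.61% of all tested genes), Elavl4 and Chgb, with a sum of 1390 to 1450 FPKM against 1200 to 1280. Neither call held without siDDX1 replicate 2 or any single scramble replicate, and that of Chgb was also lost without siDDX1 replicate 1, under quantile normalization and without the intensity trend, and both were lost without the filter (limma adjusted p up to 0.121 for Elavl4 and 0.170 for Chgb). Of the 9 cycling genes 2 decreased (beside 5.03% of all tested genes), Aurka and Pcna, with a sum of 893 to 955 FPKM against 942 to 1050. Both calls were lost without scramble replicate 1 or 3 and that of Aurka also without siDDX1 replicate 2 (limma adjusted p up to 0.0856 for Aurka and 0.0587 for Pcna). The part of these in the result was not tested.

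Genes of non-neural cells were near 0. The 7 fibroblast markers summed to 3.87 to 4.18 FPKM in siEXOSC3 against 3.75 to 4.3, and to 5.21 to 5.55 FPKM in siDDX1 against 3.72 to 4.25, with Pdgfrb the only one to reach 1 FPKM. Pdgfrb rose in siDDX1 by a log2 fold change of 0.45 (limma adjusted p = 0.0149), a call lost without siDDX1 replicate 2 or scramble replicate 1 or 3 (limma adjusted p up to 0.0834). Col1a2, Col3a1 and Lum were listed at 0 in every library. The 7 glial markers summed to 3.28 to 3.62 FPKM in siEXOSC3 against 3.26 to 3.78 and to 3.45 to 3.97 in siDDX1 against 3.23 to 3.73, with Aqp4 at 0, and the 5 macrophage markers summed to less than 2 FPKM in every library.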

How the data were processed

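RNA-seq was made by the authors from rRNA-depleted total RNA with a nondirectional kit. Per the submitters' processing notes, reads were handled with TopHat2 2.1.0, SAMtools and Cuffdiff 2.2.1 on mm9, and the deposited values are FPKM per gene. The annotation used and the library scaling are not given in the sources used here. The tables do not hold read counts, so the depth reached in each library is unknown (the methods give only a target) and no counting interval was computed.

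From the deposited FPKM, log2(FPKM + 1) was fitted per table with limma 3.58.1 (R 4.3.3; lmFit, then eBayes with an intensity trend) on genes with a mean of at least 1 FPKM over the 6 libraries. Benjamini-Hochberg adjustment ran over all genes tested at 0.05, and 95% intervals are from that fit. The fit was tested on simulated data. Shares were compared by exact two-sided permutation tests over libraries (scipy 1.17.1), with a smallest p of 0.1. The study describes the libraries as biological triplicates, and p-values measure the spread between these samples.

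The 10 genes and all lists were chosen with earlier results of these data known. Named were the 10 genes, up to 3 called genes per related list with the largest absolute log2 fold change in each knockdown, the 3 genes with the most similar values to the one of the 10 with the largest change in each table, and the targets of the siRNAs. Marker lists were neural, fibroblast, glia, macrophage and cycling cells. Sequences and positions were read from the NCBIM37 genome and GENCODE vM1, in which Map2 and Map1b are named Mtap2 and Mtap1b, and all 10 genes were found. Alternatives changed the pseudocount (0.1), the filter (none, or a mean of 5 FPKM), the scaling (quantile normalization or median centering), the intensity trend, the threshold (0.01), the replicate block and each single library. Samples were grouped by their titles.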

Additional observations from a re-analysis of the deposited data

Results flagged for a closer look

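Stmn2 was singled out because its libraries lay on opposite sides of the scramble mean in the knockdowns. All 3 siEXOSC3 libraries were above it (log2 fold change 1.06, limma adjusted p = 0.000741), and all 3 siDDX1 libraries were below it (log2 difference -0.158, limma adjusted p = 0.348). The siDDX1 and scramble ranges overlapped, the difference between the knockdowns was not tested, and the tables share their scramble libraries.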

How the results depend on the processing

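After EXOSC3 depletion 9 neurite cytoskeleton genes increased and 0 decreased under each of the 14 alternatives, and the largest limma adjusted p of any of them was 0.0207. After DDX1 depletion the count of 4 increased became 2 to 5 when single libraries were left out (2 without scramble replicate 1 or 3, 5 without siDDX1 replicate 3), and 0 decreased throughout. Same-numbered libraries did not all deviate together (r = 0.0346, -0.31 and -0.126 for siEXOSC3 with scramble, and -0.0121, 0.379 and 0.372 for siDDX1 with scramble). For siDDX1 the crossed pairs of replicates 2 and 3 had r of -0.376 and -0.372. With 3 libraries per group these values cannot decide whether same-numbered libraries were paired. With the replicate block 9 genes again increased in siEXOSC3 and 5 in siDDX1, where Tubb2b passed (limma adjusted p = 0.0331). Called values did not change sign. Uncalled siDDX1 log2 differences near 0 did: with single libraries left out Tubb3 ran from -0.04196 to 0.09162 (negative without siDDX1 replicate 1, at -0.02855, or scramble replicate 2), Map2 from -0.03079 to 0.01702 (positive without siDDX1 replicate 2, at 0.004015, scramble replicate 1, at 0.0005484, or scramble replicate 2) and Tubb2a from -0.009412, without siDDX1 replicate 2, to 0.1675. With quantile normalization Tubb3 became -0.02891 and Map2 0.01382, and with median centering Map2 became 0.021. The cause was not tested.

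Over all genes, the 1877 increased and 1767 decreased in siEXOSC3 became 869 and 480 at a threshold of 0.01, 1390 and 1059 with the replicate block, and 1025 to 2384 and 582 to 2502 with single libraries left out. The 623 and 559 in siDDX1 became 100 and 83, 1085 and 808, and 96 to 1818 and 61 to 1709, and 387 and 330 without the filter. In the related lists, 46 and 5 in siEXOSC3 became 25 and 2 at 0.01, 40 and 3 with the block, 41 and 3 without the filter, and 30 to 49 and 2 to 8 with single libraries left out. The 7 and 6 in siDDX1 became 1 and 0, 13 and 9, 4 and 4, and 1 to 21 and 0 to 15. Dcx was tested only without the filter, where it did not pass in either knockdown, and Stmn2 was not tested under the filter of 5 FPKM in siDDX1.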
